A study of Homo sapiens with 6 samples.

Results

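The genes described are 9 members of the extracellular proteolysis machinery: the plasminogen activators PLAU and PLAT, the urokinase receptor PLAUR, the serpin SERPINE2, the metalloproteinase inhibitors TIMP1, TIMP2 and TIMP3, and the matrix metalloproteinases MMP2 and MMP14. They were chosen by name and family, with earlier results of these data known, out of 18833 genes named on the array. The 9 genes were read by 12 of the 48701 probes, 3 of them for PLAUR and 2 for TIMP2. Of these, 8 genes and 11 probes passed a filter on dim probes, and TIMP3 did not.

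RNA came from A549, an established human lung adenocarcinoma line with epithelial features, cultured in DMEM with 10% FCS. Cells received Snai1 siRNA, siRNA to ncRNA-a7, or control siRNA, and each of the 3 groups held 2 bead arrays. No other genotype, time or dose was given, and all groups, the controls included, had been transfected. SNAI1 is a zinc finger repressor known from epithelial to mesenchymal transition, and ncRNA-a7 is a long noncoding transcript of its neighbourhood. The questions were how the proteolysis genes responded to each siRNA and whether those responses differed. Whether the arrays of a group stem from separate cultures is not stated, and each p-value therefore reflects array-to-array spread that may be technical. In bulk RNA, a change in the number of cells that express a gene and a change in RNA per cell cannot be told apart.

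Urokinase, the product of PLAU, and tissue plasminogen activator, the product of PLAT, cleave plasminogen to plasmin, a protease that degrades fibrin and matrix proteins and activates pro-metalloproteinases. Urokinase bound to its receptor PLAUR concentrates this activity at the cell surface, and the serpin SERPINE2, also called protease nexin-1, inactivates both activators and thrombin. Metalloproteinases such as gelatinase A (MMP2) and the membrane-anchored MMP14 degrade collagens, and TIMPs bind and inhibit them. TIMP2 also bridges MMP14 and pro-MMP2 at the cell surface, where pro-MMP2 is activated. PLAU and PLAUR are textbook targets of AP-1 and ETS transcription factors.

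Of the members that rose with Snai1 siRNA, PLAU, PLAUR and TIMP1 are shown by their promoters, from RefSeq on GRCh38.p14. Each window runs from 250 bases before to 50 after the annotated start. SERPINE2 also rose, and its windows are not printed. Windows were found for 6 of the 9 genes, and PLAT, TIMP2 and MMP2 are named only. On both strands, the SNAI1-type E-box CAGGTG and the AP-1 motif TGANTCA were searched, and they do not overlap here. Capitals mark the matches. The first is the PLAU window with E-box letters (chr10:73910882-73911181, plus strand), the second the PLAUR window with AP-1 letters (chr19:43670120-43670419, minus strand), and the third the TIMP1 window (chrX:47582186-47582485, plus strand), which holds neither.
PLAU: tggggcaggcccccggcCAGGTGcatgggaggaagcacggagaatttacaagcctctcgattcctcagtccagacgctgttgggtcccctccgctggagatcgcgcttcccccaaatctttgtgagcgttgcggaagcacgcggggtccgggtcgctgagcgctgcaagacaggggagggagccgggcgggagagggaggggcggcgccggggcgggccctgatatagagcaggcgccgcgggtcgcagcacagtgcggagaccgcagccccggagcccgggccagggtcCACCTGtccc
PLAUR: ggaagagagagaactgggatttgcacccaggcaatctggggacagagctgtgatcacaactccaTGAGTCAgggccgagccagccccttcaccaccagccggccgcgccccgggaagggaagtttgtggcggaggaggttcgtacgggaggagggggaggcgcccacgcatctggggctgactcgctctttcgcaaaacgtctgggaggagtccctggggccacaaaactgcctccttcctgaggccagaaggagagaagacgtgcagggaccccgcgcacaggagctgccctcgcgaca
TIMP1: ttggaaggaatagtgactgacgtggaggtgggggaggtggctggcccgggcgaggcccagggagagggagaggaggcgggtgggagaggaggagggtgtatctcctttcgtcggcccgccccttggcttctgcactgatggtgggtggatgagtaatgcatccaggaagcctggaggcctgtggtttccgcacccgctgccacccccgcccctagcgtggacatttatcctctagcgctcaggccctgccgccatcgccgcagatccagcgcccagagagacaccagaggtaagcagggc

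With the last base before the start as -1, the PLAU window held CAGGTG from -233 and, as CACCTG on the other strand, from base 41 of the transcript. The PLAUR window held TGAGTCA from -186. Over the 8 windows of the 6 genes, which include a second PLAU window and a pair for SERPINE2, each motif was found in 1 gene. CAGGTG occurred in 20.6% of all 35116 promoter windows of this length (7231 windows) and TGANTCA in 7.71% (2707 windows). A match is a string of letters and no evidence of binding. The GC content of the printed windows ran from 64.0% (PLAUR) to 70.0% (PLAU), against a median of 58.7% over all windows.

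The targets of the siRNAs were too dim to check the labels. SNAI1 signals were 142.7 and 144.2 in controls, 127.5 and 127.3 under Snai1 siRNA and 138.8 and 146.5 under ncRNA-a7 siRNA, and the probe failed the filter. The TRERNA1 probe, taken for ncRNA-a7 by general knowledge of its gene name, read 117.9 and 117.8, 142.7 and 128.6, and 129.7 and 132.5 in the same order, and failed it too. Fitted with no filter, SNAI1 differed by -0.25 with Snai1 siRNA (adjusted p = 0.479) and by 0 with ncRNA-a7 siRNA (0.997). TRERNA1 differed by 0.36 (adjusted p = 0.281) and 0.27 (0.427), above the controls on every array. A fall of TRERNA1 with ncRNA-a7 siRNA was thus not seen on this dim probe. Mean signal per array ran from 715 to 914, on a linear scale. The text gives deposited signals, which carry these differences in brightness, and tests and statements on overlap use values after background correction and quantile normalization on the log2 scale. The tables used hold no detection p-values, so no level is called absent, and levels are compared only within a probe. Sums of marker signals are the exception, and they are compared between groups over the same probes.

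With Snai1 siRNA, 5 of the 8 tested members were higher than with control siRNA and 0 were lower: PLAU (2.90-fold), TIMP2 (2.39-fold), SERPINE2 (1.97-fold), PLAUR (1.59-fold) and TIMP1 (1.51-fold). With ncRNA-a7 siRNA it was again 5 higher and 0 lower: PLAU (2.51-fold), TIMP2 (1.99-fold), SERPINE2 (1.74-fold), TIMP1 (1.39-fold) and PLAT (1.36-fold). The call rule, limma with a Benjamini-Hochberg adjusted p under 0.05 over 19730 features, called 9.15% of all features with Snai1 siRNA (4.89% higher, 4.26% lower). With ncRNA-a7 siRNA it called 9.83% (5.73% higher, 4.11% lower). PLAU, SERPINE2, TIMP1 and TIMP2 were higher in both, as were 2.61% of all features (514). The comparisons share the control arrays, so a rise in both is not found independently. The members were chosen with earlier results of these data known, so their share beside that of all features is a description.

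**Figure D1:**
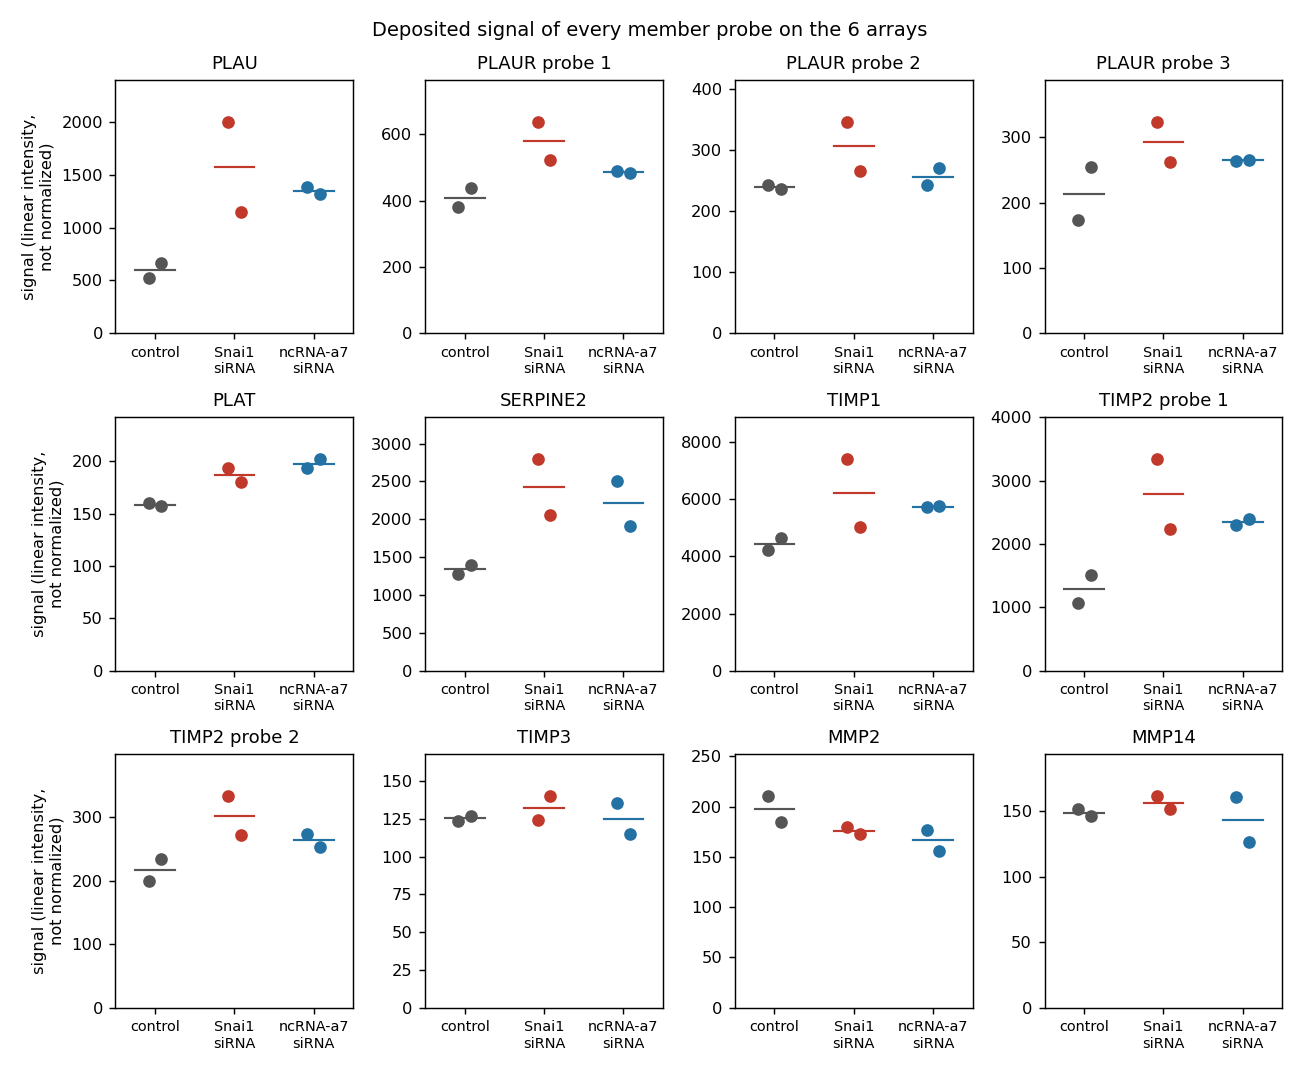
Deposited signal (linear intensity, not normalized, each panel with its own axis from 0) of the 12 member probes on the 6 arrays. Points are arrays and lines group means. The control arrays of PLAU read 525.4 and 665.1 and the other 4 arrays at least 1143, while TIMP3 stayed between 114.7 and 140 on all arrays.

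The largest change was that of PLAU, the urokinase protease itself. Its signal was 525.4 and 665.1 with control, 1995.7 and 1143 with Snai1 siRNA and 1378.4 and 1317 with ncRNA-a7 siRNA. Both siRNA groups lay above both controls with no overlap. The Snai1 arrays stood farther apart from each other than those of any other group. On the normalized log2 scale the group means were 9.03 ± 0.08 (SD, n = 2), 10.57 ± 0.26 and 10.36 ± 0.03. The rise was 1.54 ± 0.14 (SE) with Snai1 siRNA (adjusted p = 9.48e-05), rank 14 among all features from the top. With ncRNA-a7 siRNA it was 1.33 ± 0.14 (adjusted p = 0.000155), rank 30. Leaving out any 1 array left PLAU between 1.35 and 1.72 and between 1.27 and 1.38.

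PLAUR, the cell surface receptor of urokinase, had 3 probes. The first, which represents the gene, read 381.6 and 437.3 with control, 636.9 and 521.5 with Snai1 siRNA and 488.9 and 483.6 with ncRNA-a7 siRNA. After normalization the 3 groups did not overlap, with ncRNA-a7 siRNA between the others. The rise with Snai1 siRNA was 0.67 ± 0.11 (adjusted p = 0.00377). With ncRNA-a7 siRNA the difference was 0.33 ± 0.11 (adjusted p = 0.0955), past the threshold only among the probes brighter than 75% of all (adjusted p = 0.0267).

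PLAUR's further probes were read separately. The second read 243.8 and 236.2 with control, 346.2 and 266.8 with Snai1 siRNA and 242.4 and 271.1 with ncRNA-a7 siRNA. The third read 173.1 and 255, 323.5 and 262, and 264.4 and 265.6. Tested probe by probe, both rose with Snai1 siRNA, by 0.49 ± 0.13 (adjusted p = 0.0398) and 0.70 ± 0.16 (adjusted p = 0.019). With ncRNA-a7 siRNA they differed by 0.13 ± 0.13 (adjusted p = 0.617) and 0.47 ± 0.16 (adjusted p = 0.0908). Among the kept probes, all 3 thus passed the test with Snai1 siRNA and none with ncRNA-a7 siRNA. In the fit with no filter the second and the third did not pass with Snai1 siRNA (adjusted p = 0.136 and 0.0628), and the first did (adjusted p = 0.0214).

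PLAT, the second plasminogen activator, was dim, between the 52.6 and 69.3 percentile of probes. It read 160.1 and 157.1 with control, 193.8 and 180.4 with Snai1 siRNA and 193.1 and 201.9 with ncRNA-a7 siRNA. The controls were the lowest arrays in both comparisons. The rise with ncRNA-a7 siRNA was 0.45 ± 0.12 (adjusted p = 0.0333), and the difference with Snai1 siRNA was 0.39 ± 0.12 (adjusted p = 0.0581). The ncRNA-a7 call was lost without control replicate 1 (adjusted p = 0.111), control replicate 2 (0.203), ncRNA-a7 replicate 1 (0.0611) or ncRNA-a7 replicate 2 (0.133). It was also lost under median scaling (0.167), with the authors' scaled values (0.0913) and with no filter (0.132).

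SERPINE2, the inhibitor of both activators, read 1282.1 and 1391.9 with control, 2793.3 and 2052.2 with Snai1 siRNA and 2509.4 and 1906.7 with ncRNA-a7 siRNA. The siRNA groups overlapped each other and lay above both controls. The rise was 0.98 ± 0.14 with Snai1 siRNA (adjusted p = 0.00127) and 0.80 ± 0.14 with ncRNA-a7 siRNA (adjusted p = 0.0039). An activator and its inhibitor were thus higher in the same samples. With 1 array left out, SERPINE2 stayed called in both, with an adjusted p of up to 0.0217 and 0.0499.

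Among the metalloproteinase inhibitors, TIMP2 changed most. Its first probe read 1061.8 and 1508 with control, 3339.8 and 2242.7 with Snai1 siRNA and 2301.6 and 2396.8 with ncRNA-a7 siRNA. Both siRNA groups were clear of the controls. The rise was 1.26 ± 0.13 with Snai1 siRNA (adjusted p = 0.000188, rank 31) and 1.00 ± 0.13 with ncRNA-a7 siRNA (adjusted p = 0.000614, rank 107). The second TIMP2 probe read 198.8 and 234.4, 332.8 and 271.4, and 273 and 253.5 in the same order. It rose by 0.68 ± 0.12 with Snai1 siRNA (adjusted p = 0.00402), and with ncRNA-a7 siRNA differed by 0.39 ± 0.12 (adjusted p = 0.0601). The TIMP2 probes differed in size of change but not in sign.

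TIMP1, an inhibitor of most secreted metalloproteinases, was bright on every array, above the 95.9 percentile. It read 4234.3 and 4661.7 with control, 7407.9 and 5038.7 with Snai1 siRNA and 5715.7 and 5761.2 with ncRNA-a7 siRNA. The controls were the lowest arrays. The rise was 0.60 ± 0.12 with Snai1 siRNA (adjusted p = 0.00794) and 0.47 ± 0.12 with ncRNA-a7 siRNA (adjusted p = 0.0253). The Snai1 call was lost without Snai1 replicate 1 (adjusted p = 0.0587), control replicate 1 (0.0608) or control replicate 2 (0.0713), and under median scaling (0.13). The ncRNA-a7 call was lost without control replicate 1 (0.112), control replicate 2 (0.15), ncRNA-a7 replicate 1 (0.0611) or ncRNA-a7 replicate 2 (0.106), under median scaling (0.335), with an offset of 16 (0.0688) and with no filter (0.106).

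TIMP3, the matrix-bound inhibitor, was among the dimmest probes, between the 3.9 and 38.8 percentile. It read 123.9 and 127.2 with control, 124.1 and 140 with Snai1 siRNA and 135.3 and 114.7 with ncRNA-a7 siRNA. All 3 groups overlapped. Fitted with no filter, it differed by 0.15 ± 0.16 with Snai1 siRNA (adjusted p = 0.771) and by -0.01 ± 0.16 with ncRNA-a7 siRNA (adjusted p = 0.987).

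The metalloproteinases themselves did not pass the test in any comparison. MMP2 read 210.4 and 184.4 with control, 179.6 and 173.1 with Snai1 siRNA and 177 and 156 with ncRNA-a7 siRNA. On the normalized scale the Snai1 arrays overlapped the controls and the ncRNA-a7 arrays lay below them. Its difference was -0.17 with Snai1 siRNA (95% interval -0.49 to 0.14, adjusted p = 0.53) and -0.34 with ncRNA-a7 siRNA (-0.66 to -0.03, adjusted p = 0.17). The interval with Snai1 siRNA leaves room for a change of either sign.

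MMP14 read 151.3 and 145.9 with control, 161.3 and 151.5 with Snai1 siRNA and 160.8 and 126.3 with ncRNA-a7 siRNA, and its mean lay 0.01 above the filter. Its difference was 0.14 with Snai1 siRNA (-0.19 to 0.47, adjusted p = 0.643) and -0.09 with ncRNA-a7 siRNA (-0.42 to 0.24, adjusted p = 0.767). Both intervals leave room for a change of either sign.

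**Figure D2:**
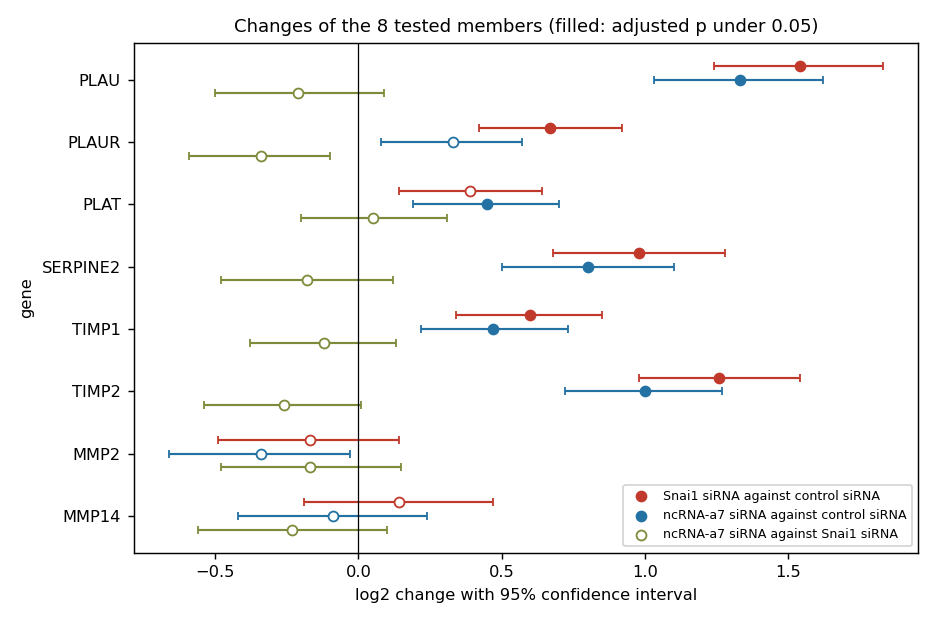
Log2 change of the 8 tested members (x axis, bars are 95% confidence intervals of the limma fit) in the 3 comparisons. Filled points have an adjusted p under 0.05. PLAU lies at 1.54 and 1.33 and TIMP2 at 1.26 and 1.00 against control, and no member is filled between the siRNAs.

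Between the siRNAs, 0 of the 8 members passed limma's test, where 8.1% of all features did (4.73% higher with ncRNA-a7 siRNA, 3.37% lower). At an unadjusted p under 0.05 it was 1, PLAUR. Its difference, ncRNA-a7 siRNA minus Snai1 siRNA, was -0.34 ± 0.11 (95% interval -0.59 to -0.10, adjusted p = 0.0893). PLAUR passed with no background correction (adjusted p = 0.0472) and among the probes brighter than 75% (adjusted p = 0.0236). For PLAU the interval ran from -0.50 to 0.09, for TIMP2 from -0.54 to 0.01, for SERPINE2 from -0.48 to 0.12, for TIMP1 from -0.38 to 0.13 and for PLAT from -0.20 to 0.31. A miss of the threshold does not show that the siRNAs acted alike on these genes.

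In values that did not overlap, 7 of the 8 members were higher on every Snai1 array than on every control array, and so were 25.7% of all features. With ncRNA-a7 siRNA it was 6 members against 25% of features. Another 27.7% and 27.1% of features were lower on every array, so that 53.4% and 52% did not overlap. Between the siRNAs 25.3% of features were higher and 25.6% lower on every array, 50.9% together, while 0 members were higher and 5 (PLAU, PLAUR, TIMP1, TIMP2 and MMP2) lower on every array. The median change of the 8 members was 0.63 with Snai1 siRNA and 0.46 with ncRNA-a7 siRNA, beside -0.01 over all features in each. Between the siRNAs it was -0.19, beside -0.01.

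**Figure D3:**
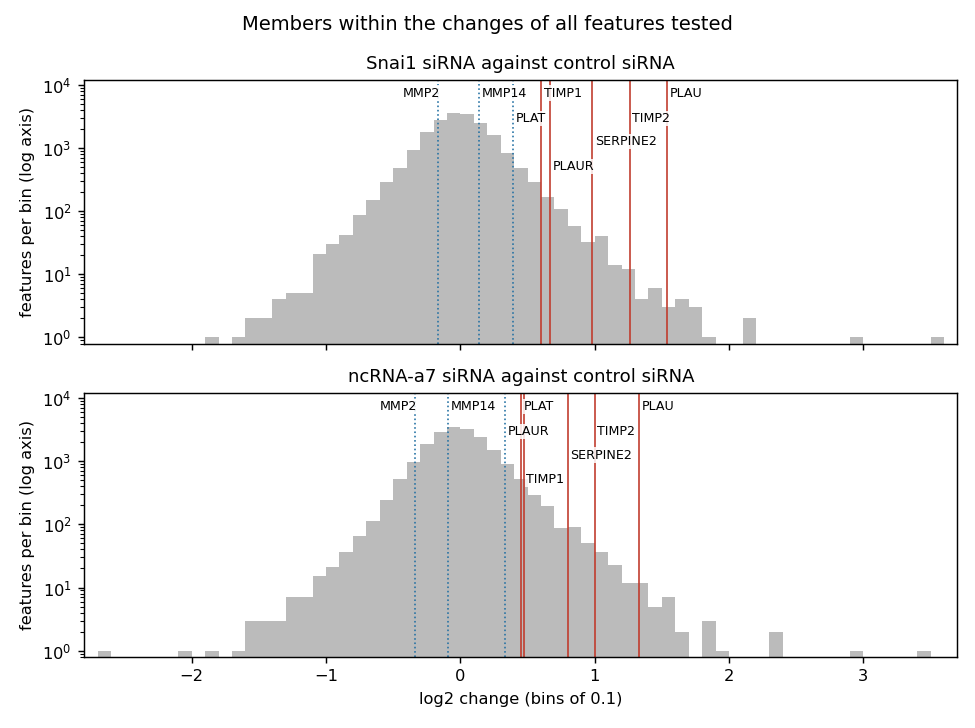
Number of features per log2 change bin (log axis, bins of 0.1) for each siRNA against control, with the members as vertical lines (solid red, adjusted p under 0.05; dotted blue, not). PLAU, TIMP2 and SERPINE2 sit in the upper tail of both, and MMP2 and MMP14 within the bulk.

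Quantile normalization gives every array the same distribution, and the balance of rises and falls over all features depended on it. Of the features called, 53.4% were higher with Snai1 siRNA, 58.2% with ncRNA-a7 siRNA and 58.4% between the siRNAs, against 33.7%, 48.9% and 70.6% under median scaling. The median of all features moved from -0.01 to -0.06, -0.04 and 0.02. Under median scaling PLAU, PLAUR, SERPINE2 and TIMP2 remained called with Snai1 siRNA, and PLAU, SERPINE2 and TIMP2 with ncRNA-a7 siRNA. Leaving out 1 array lowered the number of features called with Snai1 siRNA from 1805 to as few as 451 (without control replicate 1). With ncRNA-a7 siRNA it fell from 1940 to 547 (without control replicate 1), and between the siRNAs from 1598 to 351 (without Snai1 replicate 2).

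Of 28 other plasminogen genes listed, 19 were tested. With Snai1 siRNA 2 were higher and 1 lower (median 0.02), and with ncRNA-a7 siRNA 3 were higher and 0 lower (median 0.17). Over all features 9.15% and 9.83% were called, and nothing is read from these counts. S100A10, the annexin A2 partner that binds plasminogen at the cell surface, read 29050 and 32476.2 with control, 14257.7 and 12437.8 with Snai1 siRNA and 47775.8 and 47097.4 with ncRNA-a7 siRNA. The 3 groups were far apart, with control in the middle. It fell by 1.10 with Snai1 siRNA (SE 0.12, adjusted p = 0.000304) and rose by 0.66 ± 0.12 with ncRNA-a7 siRNA (adjusted p = 0.00542, and 0.0713 without control replicate 1). Between the siRNAs S100A10 was 3.37-fold higher with ncRNA-a7 siRNA (adjusted p = 6.49e-05), rank 2 of all features. Its second probe moved the same ways, by -1.06, 0.73 and 1.80. While PLAU did not pass the test between the siRNAs, this plasminogen receptor subunit thus went in opposite directions.

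VTN, vitronectin, a matrix ligand of PLAUR, rose with Snai1 siRNA by 0.98 ± 0.20 (adjusted p = 0.0101, but 0.0801 without Snai1 replicate 2, and 0.60 with an adjusted p of 0.0906 without control replicate 1). SERPINI1, neuroserpin, an inhibitor of tissue plasminogen activator, rose by 0.70 ± 0.12 (adjusted p = 0.00446, and 0.0598 without control replicate 1), and its second probe differed by 0.56 (adjusted p = 0.0821, no filter). CD59, a small GPI-anchored complement inhibitor of the same fold family as PLAUR, rose with ncRNA-a7 siRNA by 0.59 ± 0.12 (adjusted p = 0.00795, and 0.0913 without control replicate 2), while its second probe differed by 0.26 (adjusted p = 0.468, no filter). Between the siRNAs CD59 was 0.72 ± 0.12 higher with ncRNA-a7 siRNA on its representing probe (adjusted p = 0.00393). Over the alternatives this CD59 difference ran from 0.46 to 0.88. SORL1, a sorting receptor that binds plasminogen activator complexes, was 0.48 ± 0.13 higher with ncRNA-a7 siRNA than with control (adjusted p = 0.0371). That call was lost without Snai1 replicate 2, either control array or ncRNA-a7 replicate 2 (adjusted p up to 0.207). SERPINF2, alpha-2-antiplasmin, the main inhibitor of plasmin in blood, was 0.47 ± 0.11 higher under ncRNA-a7 siRNA than under Snai1 siRNA (adjusted p = 0.026). Leaving out any array but control replicate 2 ended this call (adjusted p up to 0.13). LRP1, the clearance receptor of urokinase and serpin complexes, differed by 0.02 and -0.19 and did not pass the test (adjusted p = 0.947 and 0.432). ANXA2, the partner of S100A10, differed by 0.08 in both (adjusted p = 0.765 and 0.775). LRP1 and ANXA2 were named after their values were seen.

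Of 21 other metalloproteinases 9 were tested, with 0 called with Snai1 siRNA (median -0.03) and 1 higher with ncRNA-a7 siRNA (median -0.01). That 1 was MMP24, a membrane-type metalloproteinase, at 473.8 and 530.4 with control, 506.7 and 470.8 with Snai1 siRNA and 768.2 and 856 with ncRNA-a7 siRNA. Only the ncRNA-a7 arrays stood apart, by 0.81 ± 0.13 against control (adjusted p = 0.00318) and 0.74 ± 0.13 against Snai1 siRNA (adjusted p = 0.00723). The latter was lost without Snai1 replicate 1 or ncRNA-a7 replicate 2 (adjusted p up to 0.0583). MMP7, matrilysin, did not pass the test against control with either siRNA (-0.32, adjusted p = 0.121, and 0.32, adjusted p = 0.111). Between the siRNAs MMP7 was 0.64 ± 0.12 higher with ncRNA-a7 siRNA (adjusted p = 0.00765, but 0.0676 without Snai1 replicate 2 and 0.059 without ncRNA-a7 replicate 1), and its second probe by 0.82.

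Of 25 ADAM and ADAMTS proteases 17 were tested, with 1 higher and 0 lower with Snai1 siRNA (median 0.10) and 2 higher and 0 lower with ncRNA-a7 siRNA (median 0.08). ADAMTS9, a proteoglycan-cleaving protease, rose in both, by 0.69 ± 0.11 (adjusted p = 0.00279) and 0.84 ± 0.11 (adjusted p = 0.000768). ADAM15, a membrane-anchored ADAM, was 0.39 ± 0.11 higher with ncRNA-a7 siRNA than with control (adjusted p = 0.0492). Its other probes differed by 0.11, 0.20 and 0.16 without passing in the fit with no filter. ADAM22, a member of the family without protease activity, was lower by 0.45 under ncRNA-a7 siRNA, compared with Snai1 siRNA (SE 0.11, adjusted p = 0.031). Its other probes differed by -0.04 and -0.03 without passing in the fit with no filter. The calls of ADAM15 and ADAM22 were lost in all 6 fits without 1 array, and those of ADAMTS9 in none. For this list and the other metalloproteinases, these counts lie near the 9.15% and 9.83% called over all features, and nothing is read from them.

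Of 24 regulators and activators of these proteases 20 were tested. With Snai1 siRNA 5 were higher and 2 lower (median 0.19), and with ncRNA-a7 siRNA 6 were higher and 0 lower (median 0.20). Over all features 4.89% were higher and 4.26% lower with Snai1 siRNA, and 5.73% and 4.11% with ncRNA-a7 siRNA. RECK, a membrane-anchored inhibitor of MMP2, MMP9 and MMP14, read 280 and 316.3 with control, 476.8 and 381.7 with Snai1 siRNA and 565.1 and 477.1 with ncRNA-a7 siRNA. The controls were the lowest. It rose by 0.71 ± 0.12 (adjusted p = 0.00401, and 0.0508 without control replicate 1) and by 0.96 ± 0.12 (adjusted p = 0.000614), and its second probe by 0.69 and 1.06. CTSL, cathepsin L, a lysosomal and secreted cysteine protease, rose with ncRNA-a7 siRNA by 0.58 ± 0.11 (adjusted p = 0.00792). That call was lost without control replicate 1. With Snai1 siRNA CTSL rose by 0.46 ± 0.11 (adjusted p = 0.0251), a call lost without either Snai1 array or either control array. PCSK6, a proprotein convertase, was 0.68 ± 0.13 higher under ncRNA-a7 siRNA than under Snai1 siRNA (adjusted p = 0.0112). It was lost without Snai1 replicate 2 or ncRNA-a7 replicate 1 (adjusted p up to 0.0935), and its other probes differed by 0.23 and -0.25 without passing.

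TFPI2, a matrix-bound Kunitz inhibitor of plasmin, read 5836.4 and 6723.8 with control, 2943.3 and 2112.9 with Snai1 siRNA and 4970.9 and 4919.4 with ncRNA-a7 siRNA. It was lowest with Snai1 siRNA, where it fell by 1.22 (SE 0.11, adjusted p = 9.59e-05). Between the siRNAs it was 0.96 ± 0.11 higher with ncRNA-a7 siRNA (adjusted p = 0.000655). An inhibitor of plasmin thus fell where TIMP1, TIMP2, SERPINE2 and RECK rose.

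TGM2, tissue transglutaminase, a matrix crosslinking enzyme, read 984 and 1297.1 with control, 2386.5 and 1824.6 with Snai1 siRNA and 3400 and 2885.1 with ncRNA-a7 siRNA on its brightest probe. This probe rose by 1.02 ± 0.12 (adjusted p = 0.000479) and 1.58 ± 0.12 (adjusted p = 2.39e-05). Its other probes rose with Snai1 siRNA by 2.04 and 0.91, and differed with ncRNA-a7 siRNA by 0.85 and 0.20. The probes disagree on which siRNA gave more: the difference between the siRNAs was 0.57 on the brightest (adjusted p = 0.0164, lost without either Snai1 array or ncRNA-a7 replicate 1, with an adjusted p of up to 0.0974) and -1.20 and -0.70 on the others.

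Of 18 ligands and receptors tied to the urokinase system 13 were tested. With Snai1 siRNA 6 were higher and 0 lower (median 0.21), and with ncRNA-a7 siRNA 5 were higher and 0 lower (median 0.28). The shares over all features were 4.89% higher and 4.26% lower with Snai1 siRNA, and 5.73% and 4.11% with ncRNA-a7 siRNA. ITGA3, an integrin subunit that associates with PLAUR, read 726.1 and 921.4 with control, 1569.4 and 1280.9 with Snai1 siRNA and 1892.2 and 1640.1 with ncRNA-a7 siRNA, clear of the controls. It rose by 0.94 ± 0.12 (adjusted p = 0.000886) and 1.22 ± 0.12 (adjusted p = 0.000153). MET, the receptor of hepatocyte growth factor, whose precursor urokinase can cleave, rose by 0.78 ± 0.12 (adjusted p = 0.00242) and 0.67 ± 0.12 (adjusted p = 0.00542, and 0.0761 without control replicate 1). ITGAV, the integrin alpha V subunit of vitronectin receptors, rose with ncRNA-a7 siRNA by 0.58 ± 0.11 (adjusted p = 0.00819). That call was lost without either control array. With Snai1 siRNA ITGAV rose by 0.48 ± 0.11 (adjusted p = 0.0231), a call lost without Snai1 replicate 2 or either control array.

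EGFR, a growth factor receptor that PLAUR is known to engage, rose with Snai1 siRNA by 0.74 ± 0.12 (adjusted p = 0.00254). Between the siRNAs it was lower by 0.72 with ncRNA-a7 siRNA (SE 0.12, adjusted p = 0.00411, and 0.0545 without Snai1 replicate 2) on its representing probe. Its other 3 probes did not repeat these changes in the fit with no filter. With Snai1 siRNA they differed by 0.19, 0.10 and -0.18 (adjusted p = 0.633, 0.871 and 0.668), and between the siRNAs by -0.12, -0.12 and 0.41 (adjusted p = 0.798, 0.828 and 0.246). The last of them thus had the opposite sign in both. CD44, the hyaluronan receptor and a docking site of metalloproteinases, was 0.81 ± 0.12 higher under ncRNA-a7 siRNA than under Snai1 siRNA (adjusted p = 0.00288), and its other probes differed by 0.23 and 0.61 without passing in the fit with no filter.

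Of 16 AP-1 and ETS transcription factors 15 were tested. With Snai1 siRNA 5 were higher and 2 lower (median 0.05), and with ncRNA-a7 siRNA 2 were higher and 2 lower (median -0.03). Beside this, 4.89% of all features were higher and 4.26% lower with Snai1 siRNA, and 5.73% and 4.11% with ncRNA-a7 siRNA. ATF3, a stress-induced member of the AP-1 group, read 487.4 and 711.9 with control, 336.7 and 296.4 with Snai1 siRNA and 319.7 and 333.4 with ncRNA-a7 siRNA. On this representing probe both siRNA groups lay below the controls, and ATF3 fell by 0.92 (adjusted p = 0.00154) and by 0.91 (adjusted p = 0.00137). Its other probes failed the filter and did not pass the test in the fit with no filter. They differed by -0.33 and 0.03 with Snai1 siRNA (adjusted p = 0.496 and 0.979). With ncRNA-a7 siRNA they differed by -0.23 and 0.07 (adjusted p = 0.652 and 0.935). ETS2 rose with Snai1 siRNA by 0.76 ± 0.12 (adjusted p = 0.00253). Between the siRNAs it was lower by 0.46 with ncRNA-a7 siRNA (SE 0.12, adjusted p = 0.0354), which was lost in all 6 fits without 1 array (adjusted p up to 0.204). ETV4, an ETS factor, was 0.46 ± 0.12 higher with ncRNA-a7 siRNA (adjusted p = 0.032), a call lost without either control array or ncRNA-a7 replicate 2. With Snai1 siRNA ETV4 was 0.48 ± 0.12 higher (adjusted p = 0.0247), a call lost without either Snai1 array or either control array. JUND, an AP-1 subunit, was lower by 0.48 with ncRNA-a7 siRNA (SE 0.14, adjusted p = 0.0455), and lost without any 1 of the control and ncRNA-a7 arrays (adjusted p up to 0.234). FOS rose with Snai1 siRNA by 0.61 ± 0.13 (adjusted p = 0.0137), a call lost without either Snai1 array or control replicate 2. With ncRNA-a7 siRNA FOS was 0.46 ± 0.13 higher (adjusted p = 0.0488), a call lost in all 6 fits without 1 array. With Snai1 siRNA, where PLAU and PLAUR rose, the calls of ETS factors were all higher, and those of AP-1 factors went both ways. Whether these factors had a part in the rises of PLAU and PLAUR was not tested. Of the list genes named above, the calls of SORL1, SERPINF2, ADAM15, ADAM22, ETV4, FOS and JUND did not hold with no filter or under median scaling. The same held for CTSL and ITGAV with Snai1 siRNA, and for ETS2 and TGM2 between the siRNAs. The adjusted p ran from 0.0548 to 0.181 with no filter and from 0.0595 to 0.518 under median scaling. With ncRNA-a7 siRNA the calls of CTSL and ITGAV were lost under median scaling (0.128 and 0.137).

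**Figure D4:**
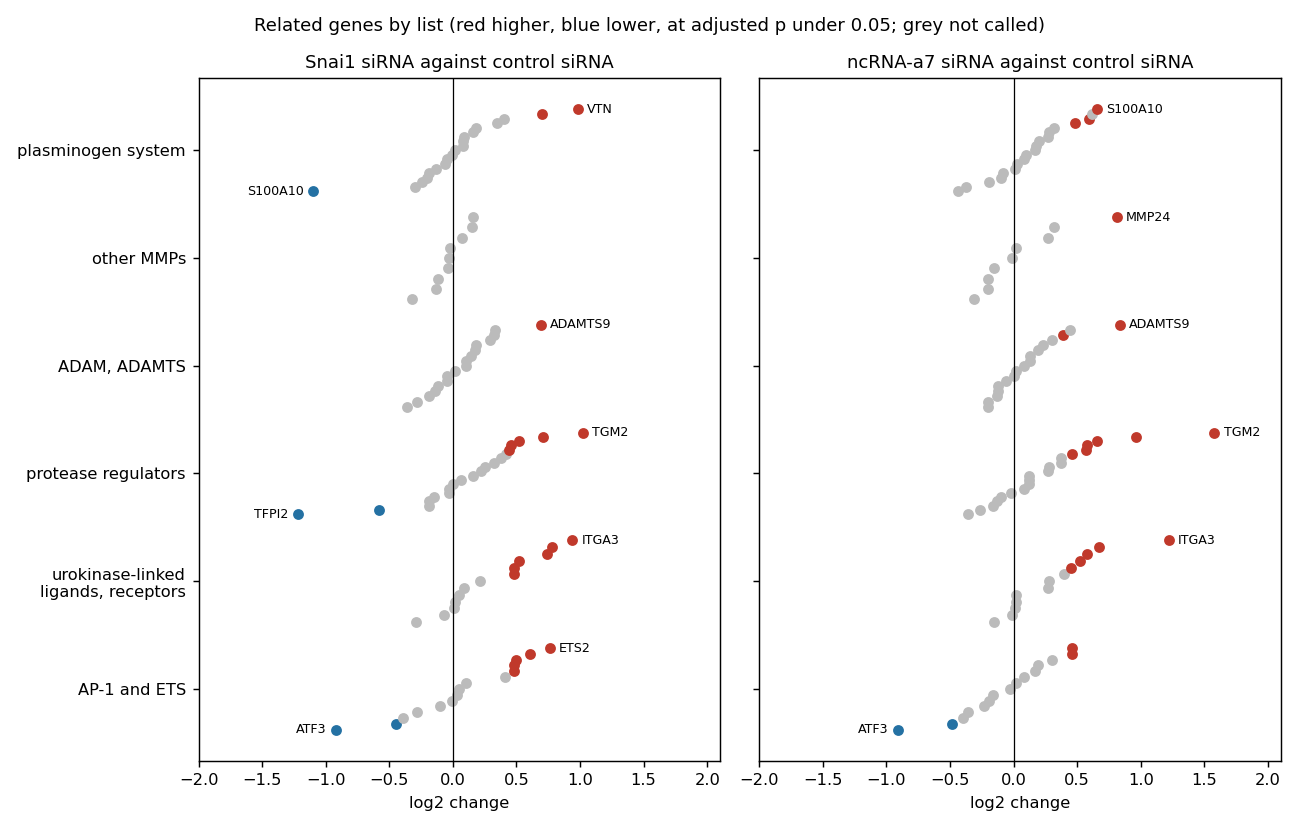
Log2 change (x axis) of every tested gene of the 6 related lists, for each siRNA against control, ordered within a list. Red points are higher and blue lower at an adjusted p under 0.05, grey did not pass, and the outermost called genes are labelled. S100A10 lies at -1.10 in the left panel and at 0.66 in the right.

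Genes whose pattern over the 6 arrays lay nearest to a member were sought by the root mean square difference of log2 values from the control mean. The search covered the 2483 other features that have a gene name and were called in either comparison with control. Nearest to PLAU were PKIB (0.11), STK39 (0.18) and NUP210 (0.20). Nearest to PLAUR were NDRG2 (0.03), SOCS2 (0.04) and IGFBP4 (0.05), and nearest to TIMP2 were NUP210 (0.08), AGTR1 (0.11) and ADRA1B (0.11). PKIB rose by 1.49 and 1.23, beside 1.54 and 1.33 for PLAU.

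Some markers of the cell line and of other cell types moved with the same comparisons. All 5 epithelial markers passed the filter, with the lowest and highest summed signals of a group at 17800 to 20900 with control, 21100 to 26200 with Snai1 siRNA and 23200 to 25500 with ncRNA-a7 siRNA. KRT8 alone read 12754.5 to 19792.7 over the arrays and made up most of these sums, which are of deposited signals. CDH1, E-cadherin, rose by 0.78 and 0.72 (adjusted p = 0.00147 and 0.00202), while EPCAM, an epithelial adhesion molecule, fell by 1.12 and by 1.64 (adjusted p = 0.00124 and 0.000109). With ncRNA-a7 siRNA KRT8 was also higher, by 0.49 (adjusted p = 0.041), and KRT18 lower, by 0.42 (adjusted p = 0.0445). Fibroblast markers (3 of 5 above the filter) summed to 871 to 977, 990 to 1140 and 970 to 981 in the same order, with COL1A2 and COL3A1 below it. The collagen gene COL1A1 and LUM, lumican, rose with Snai1 siRNA by 0.53 each (adjusted p = 0.0194 and 0.0158), and 0 of the 3 were called with ncRNA-a7 siRNA. Leukocyte markers (3 of 5) summed to 2110 to 2350, 3170 to 4600 and 2940 to 3560, most of it CD68, a lysosomal protein, with PTPRC and CD3E below the filter. Endothelial markers (3 of 5) summed to 790 to 804, 887 to 1040 and 813 to 908, with the defining VWF and CDH5 below it, at most at the 17.3 and 33.3 percentile. Of the 3 tested leukocyte markers 2 were higher with Snai1 siRNA and 3 with ncRNA-a7 siRNA. CD14 among them rose by 1.15 and 1.01 (adjusted p = 0.000271 and 0.000447). Of the 3 tested endothelial markers only 1 was called in each comparison, with list medians of 0 and 0.04. It was ESAM, which rose by 1.49 and 0.66 (adjusted p = 6.84e-05 and 0.00642). The part of such cells in the rises of PLAU, the TIMPs and SERPINE2 was not tested.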

How the data were processed

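Total RNA from 6 A549 samples was extracted with TRIzol, labelled with biotin and hybridised to single-colour Illumina arrays, per the labels. The deposited scanner table gives 1 intensity per probe and array, not normalized. The deposited series matrix gave the same intensity multiplied by a constant of 0.783 to 1 per array, on a linear scale without centring and with unchanged direction. No scanner software is named in the labels. Probes were named through the platform annotation (28044 with 1 symbol, 13 with several, 20644 with none).

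Values were corrected with normexp (offset 50), quantile normalized and put on the log2 scale, so fold changes of dim genes are understated. Probes with a mean above the median over probes were kept (24350), and the brightest represented its gene (19730 features). All 6 arrays entered 1 limma 3.58.1 fit in R 4.3.3 (3 residual and 8.85 prior degrees of freedom, typical SE 0.13), with Benjamini-Hochberg adjustment over all features. Probe tests used every kept probe, and TIMP3, SNAI1, TRERNA1 and the further probes of list genes a fit with no filter.

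Members, lists and alternatives were chosen with earlier results of these data known. All members were named, and of each list up to 3 called genes with the smallest p per comparison. The procedure was tested on simulated data. The number of arrays limits the precision. Same-numbered arrays did not deviate together (correlations of -0.07, -0.01 and 0.01), so the numbers were not taken as pairs.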

Additional observations from a re-analysis of the deposited data

How the results depend on the processing

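Between 2 and 5 members were called with Snai1 siRNA and between 1 and 5 with ncRNA-a7 siRNA over all alternatives, and every one called was higher. With a minimum change of 1.5-fold, 2 members were called with Snai1 siRNA (PLAU and TIMP2) and 1 with ncRNA-a7 siRNA (PLAU). With ncRNA-a7 siRNA 3 were called under median scaling and 3 with no filter. Between the siRNAs 1 was called with no background correction and 1 among the probes brighter than 75%. Leaving out 1 array gave 4 to 5 with Snai1 siRNA, 3 to 5 with ncRNA-a7 siRNA and 0 between the siRNAs. With the lone array of a group, its spread was assumed to be that of the other groups.

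Sign changes were limited to values that did not pass the test, with 1 exception. TGM2 between the siRNAs turned to -0.44 with the mean of its probes. Leaving out 1 array, MMP2 with Snai1 siRNA ran from -0.37 to 0.03 (without control replicate 1) and MMP14 with ncRNA-a7 siRNA from -0.16 to 0.14 (without ncRNA-a7 replicate 2). Between the siRNAs, without ncRNA-a7 replicate 2, PLAT reached -0.01 (up to 0.12 otherwise), SERPINE2 0 (down to -0.36) and MMP14 0 (down to -0.23). MMP14 passed the filter in 2 of the 6 fits without 1 array.

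With the replicate number as a block, 5, 5 and 0 members and 1657, 1720 and 1416 features were called. The number of features called changed with the setting: it was 50, 70 and 23 with a minimum of 1.5-fold, and 2719, 2943 and 2580 with a trended robust prior. It was 976, 1020 and 565 with an offset of 16, 1064, 920 and 698 under median scaling, and 817, 821 and 496 with no filter. Between the siRNAs it was also 2484 with no background correction, 2502 among the brighter probes and 1053 with the compared groups alone. Dim signals limit what can be said of MMP14, MMP2, TIMP3 and PLAT.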
